A study of Homo sapiens with 4 samples.

Results

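Interferon-stimulated antiviral effector genes are the set described here: 50 genes, named one by one in a fixed list, among the 26475 gene symbols counted in each library. The list was set by gene symbol, with no rule on the level of any gene, but with earlier results of these data known. Shares of members beside those of all genes are therefore descriptions. All 50 symbols were found, and 49 had at least 10 reads in at least 1 library and were compared. EPSTI1 was the exception, with at most 2 reads in any library.

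Cells that meet an interferon, or that detect viral nucleic acid, switch on a shared set of genes whose products block viruses. Type I and type III interferons act through JAK kinases to assemble a transcription factor complex, with STAT2 and IRF9 among its parts, that binds interferon-stimulated response elements in promoters, whereas interferon-gamma acts through a different element. The products include sensors and enzymes of double-stranded RNA, RNA-binding IFIT proteins, GTPases of the MX family, membrane proteins that hinder virus entry or release, and the ubiquitin-like modifier ISG15. Many tumour cells keep part of this set on without infection.

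RNA was measured by sequencing of mammospheres, the floating spheres that breast cells form without attachment, of MDA-MB-468, an established human basal-like triple-negative breast cancer line. There were 4 conditions with 1 library each. All cells had received Cas9 and a doxycycline-inducible guide construct by lentivirus and were pools sorted by flow cytometry, not clones. CTL was the vector control pool without treatment and CTL+dox the same pool given doxycycline. The gRNA2 pool carried a guide against TCOF1, a nucleolar factor of ribosomal RNA synthesis, and is labelled wild type without doxycycline. gRNA2+dox, given doxycycline, is labelled the TCOF1 knockout, and the spheres of several plates were pooled for each library. With 1 library per condition no spread between cultures could be measured, so no test across replicates was made. Reads and levels without a library name are given in the order CTL, CTL+dox, gRNA2, gRNA2+dox. Each interval of a ratio below is an exact 95% interval of the reads of the libraries compared, which covers counting error only. Intervals of a difference of ratios are approximate 95% intervals and also cover counting error only.

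Counts on genes ranged from 19960644 to 26322847 per library. TCOF1 itself had 1019, 754, 1318 and 437 reads, and its log2 ratio was -1.34 for gRNA2+dox against gRNA2 and -0.74 against CTL+dox. TCOF1 was also lower in CTL+dox than in CTL, with a log2 ratio of -0.58. Summed levels of 12 epithelial and basal-like breast markers were between 26318 and 28372 CPM (CPM is the read count over the scaled library size). Of 16 white blood cell markers, CD3D, NKG7 and HBB had 0 reads in all 4 libraries, PTPRC had at most 2 reads, and the summed level of the list lay between 157 and 184 CPM, nearly all of it from CD68, CSF1R and CD14. Markers of plasmacytoid dendritic cells and macrophages summed to between 6.14 and 7.93 CPM and were lowest in gRNA2+dox, whereas 10 fibroblast and endothelium markers summed to between 20.1 and 26.5 CPM and were highest in gRNA2+dox. The part of these other cell markers in the results below was not tested.

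Promoter sequence is shown first, because the response element is the feature that defines how these genes are switched on. In the RefSeq promoter table of GRCh38.p14, with a window from 250 bases before to 50 after each gene start, 41 members had an entry. OAS2, OASL, IFIT2, MX2, UBA7, USP18, TRIM22, IFITM2 and LY6E were not in it. The core of the response element, GAAA followed by any 2 bases and GAAA again, was searched on both strands. It was present in 30 of the 41 members, 73.2%, compared with 4.38% of the 27305 genes in the table. More than 1 match, overlapping matches included, was found in 1 window for 15 members, against 0.311% of all genes. A match is a description of letters and not a binding site.

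The sequences below are the 180 bases before the gene start, read 5′ to 3′ along the gene, with every match of that core (or its reverse complement) in capitals. They are shown for IFIT3, IFIT1 and IFI44L, which were higher in gRNA2+dox than in every other library, and for ISG15, HERC5 and IFI6, which differed by less than 1.5-fold from gRNA2 there. IFIT3 is chr10:89327817-89327996 and IFIT1 chr10:89392443-89392622, both on the forward strand. IFI44L is chr1:78620268-78620447 and ISG15 chr1:1013317-1013496, both on the forward strand. HERC5 is chr4:88456939-88457118 on the forward strand and IFI6 chr1:27672193-27672372 on the reverse strand.
IFIT3: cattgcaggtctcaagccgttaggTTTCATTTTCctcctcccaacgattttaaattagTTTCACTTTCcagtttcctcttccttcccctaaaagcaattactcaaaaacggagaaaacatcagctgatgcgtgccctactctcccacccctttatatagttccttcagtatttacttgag
IFIT1: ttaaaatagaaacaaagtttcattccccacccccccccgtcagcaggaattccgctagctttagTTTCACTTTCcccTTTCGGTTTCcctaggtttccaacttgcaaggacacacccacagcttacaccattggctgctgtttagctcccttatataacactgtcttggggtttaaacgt
IFI44L: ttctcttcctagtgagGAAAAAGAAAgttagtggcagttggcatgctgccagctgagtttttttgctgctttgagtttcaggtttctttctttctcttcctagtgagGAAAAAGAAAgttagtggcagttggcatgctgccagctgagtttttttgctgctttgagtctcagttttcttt
ISG15: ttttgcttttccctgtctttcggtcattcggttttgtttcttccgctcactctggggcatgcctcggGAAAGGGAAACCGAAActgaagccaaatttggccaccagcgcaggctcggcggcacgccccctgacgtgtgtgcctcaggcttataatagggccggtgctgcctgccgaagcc
HERC5: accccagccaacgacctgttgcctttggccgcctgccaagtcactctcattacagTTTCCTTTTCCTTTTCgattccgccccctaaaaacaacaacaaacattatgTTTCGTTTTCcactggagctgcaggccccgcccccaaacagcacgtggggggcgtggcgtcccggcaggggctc
IFI6: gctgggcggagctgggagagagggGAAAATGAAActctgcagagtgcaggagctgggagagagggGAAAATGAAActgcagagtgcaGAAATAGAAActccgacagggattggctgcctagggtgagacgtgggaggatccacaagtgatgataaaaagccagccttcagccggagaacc
Each of these windows held 2 or 3 matches. In IFIT1 the matches began 116 and 103 bases before the start, and in IFIT3 156 and 122 bases before it. In ISG15 both matches overlapped, as did a pair in HERC5. IFI44L carried its matches 164 and 73 bases before the start within a stretch of sequence that occurs 2 times in the window. These genes were picked by their ratios to show both kinds, so a link between copies of the element and the ratio was not tested. HERC5 and IFI6 were below their gRNA2 level, and the interval of IFI6 included 0. Among tested members with a promoter entry, the median log2 ratio of gRNA2+dox to gRNA2 was 0.15 for the 29 with a match and 0.10 for the 11 without, with ranges of -0.32 to 3.10 and -0.11 to 0.80.

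Levels of the members covered a wide range. Per kilobase of the canonical transcript, the median member had a mean of 8.24 CPM per kb over the 4 libraries, 19 members were above 10 and 7 were at or below 1. The highest was IFITM3, a membrane protein that blocks fusion of incoming viruses, at 168, 179, 218 and 232 CPM per kb in CTL, CTL+dox, gRNA2 and gRNA2+dox. LGALS3BP, a secreted glycoprotein, followed at 109.5, 116, 136 and 132 CPM per kb. Both were higher in the 2 libraries of the gRNA2 pool than in the 2 of the CTL pool. PLSCR1, a phospholipid scramblase with antiviral activity, was at 61.6, 67.8, 68.6 and 69.9 CPM per kb. LY6E, a lipid-anchored surface protein, was at 55.2, 63.3, 61.8 and 61.2 CPM per kb, and ISG15 was at 55.04, 58.8, 53.6 and 71.9 CPM per kb. These neighbours in the order of levels lay close together in every library. LY6E was above ISG15 in CTL, CTL+dox and gRNA2 and below it in gRNA2+dox.

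In total the members took 0.189%, 0.185%, 0.203% and 0.216% of the counts in CTL, CTL+dox, gRNA2 and gRNA2+dox, with summed levels of 1846, 1843, 2053 and 2192 CPM. The sum was highest in gRNA2+dox and next in gRNA2. Among the 46 members with at least 10 reads in every library, the ratio of the highest to the lowest library had a median of 1.33, against 1.22 for the 13856 genes with as many reads, and 13 members were past 1.5, against 16.6% of those genes. Of the 49 compared, 32 were highest in gRNA2+dox, while 23.8% of all tested genes were. In these bulk libraries, more cells that express a gene and more RNA per cell cannot be told apart.

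**Figure D1:**
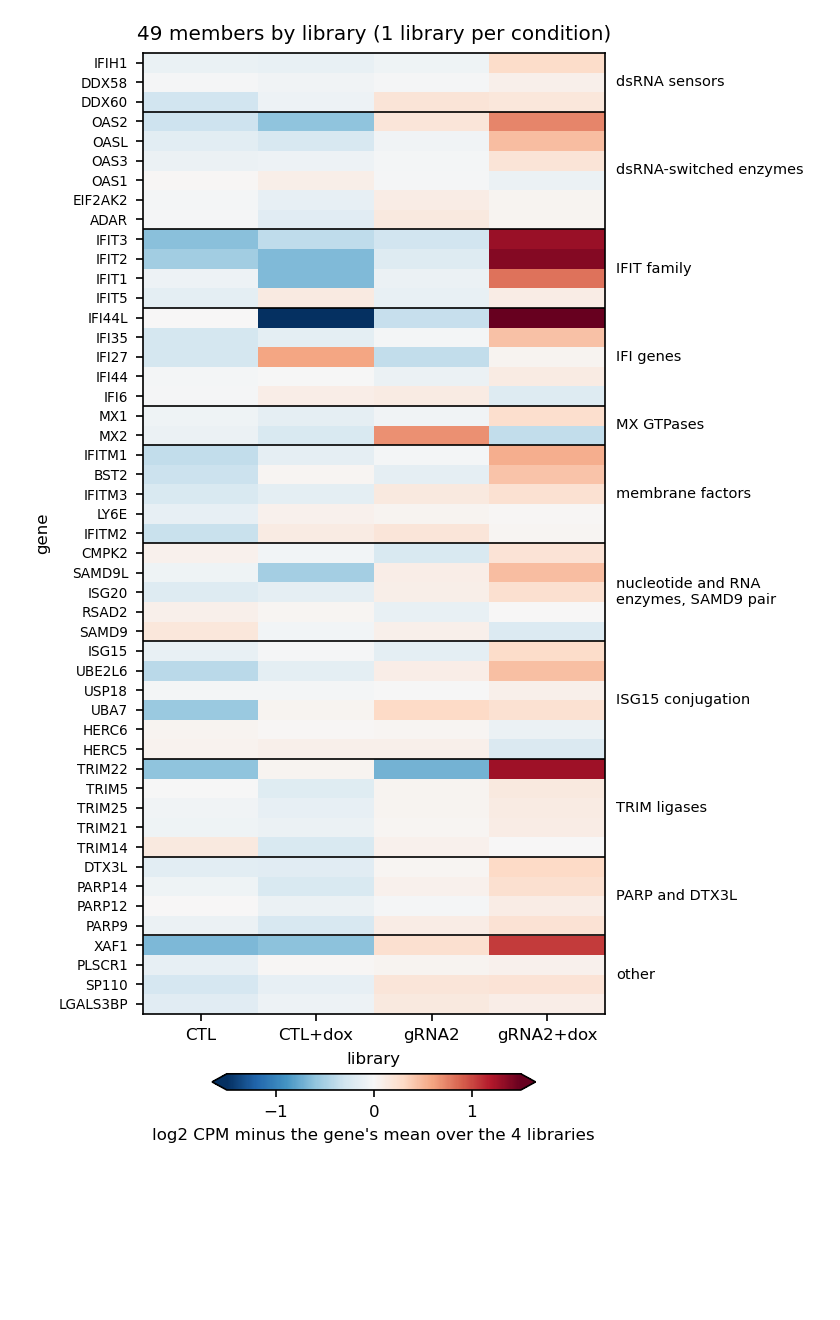
Each row is 1 of the 49 compared members, grouped by role, and each column 1 library. Colour gives the log2 CPM minus the mean of that gene over the 4 libraries. IFIT3, IFIT2, IFI44L, TRIM22 and XAF1 show the deepest red, in gRNA2+dox, and most other rows are pale.

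The comparison of gRNA2+dox with gRNA2 asks how the members differed between knockout spheres and the same pool without doxycycline. IFIT1, IFIT2, IFIT3, IFI44L, TRIM22 and XAF1 were higher in gRNA2+dox and no member was lower by the same rule. IFIT3 was 2.99-fold and IFIT2 2.97-fold higher. The median log2 ratio over all 49 members was 0.13, against -0.02 for all tested genes, and IFITM1, BST2, OAS2 and OASL lay just under 1.5-fold with intervals above 0.

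The log2 ratio was above 0 in 35 members, and 45.8% of all tested genes were above 0. Its interval lay above 0 in 22 members, against 13.6% of all genes, and below 0 in 3 members (HERC5, SAMD9 and ADAR), against 17.3%. A rule of 1.5-fold with the interval short of 0 was met by 6 members as higher, against 1.7% of all genes, and by 0 as lower, against 2.39%. A stricter rule, a log2 ratio beyond 1 with a bound beyond 0.5, was met by 4 members as higher (IFIT2, IFIT3, IFI44L and TRIM22), against 0.257% of all genes, and by 0 as lower, against 0.27%. The bound is the 1% quantile of the log2 ratio under counting error. IFI44L and TRIM22 reached 10 reads in gRNA2+dox alone, so they entered the comparison through the library in which they were high. With the 46 members that had 10 or more reads in every library, 4 were past 1.5-fold and 2 past the stricter rule. The share of all genes with as many reads was not taken for these counts, nor for those against CTL+dox and CTL below.

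**Figure D2:**
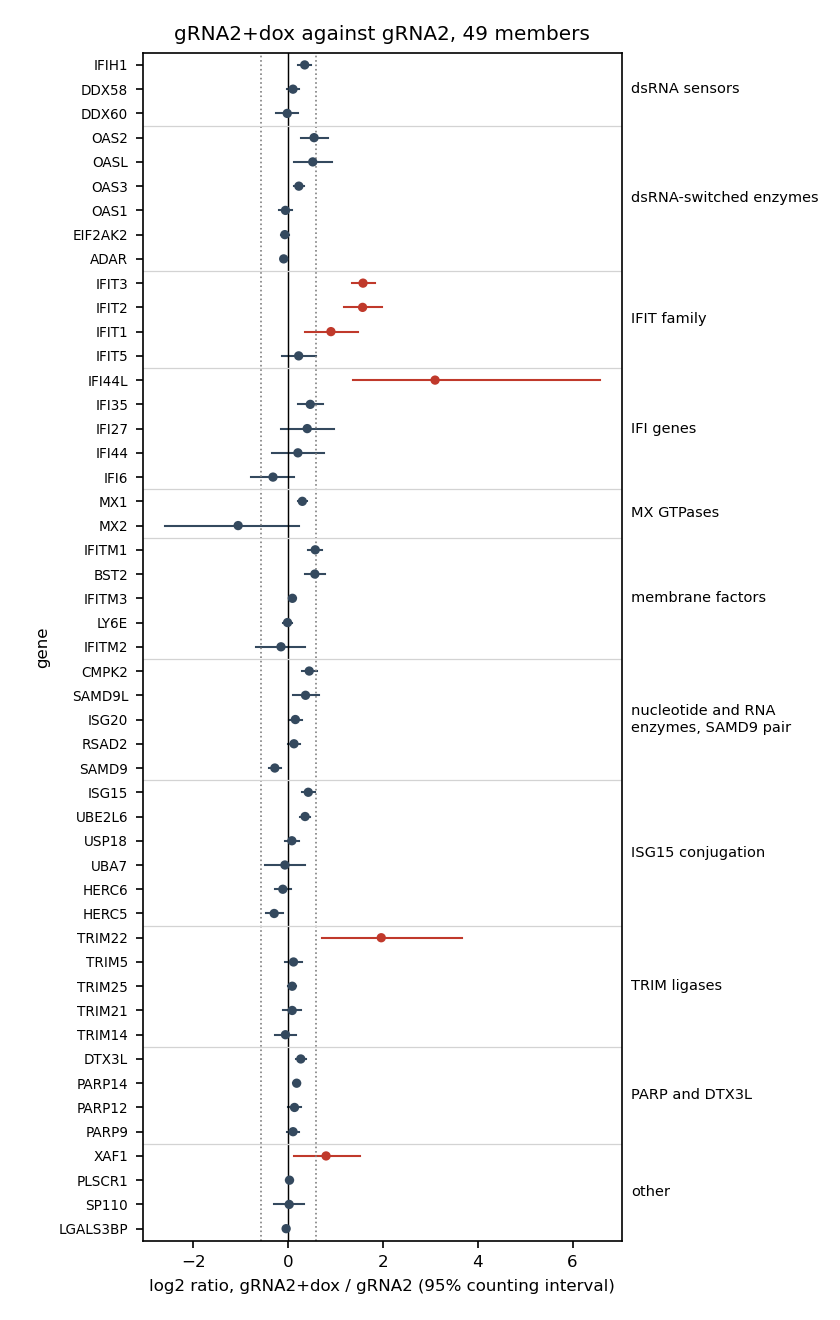
Points give the log2 ratio of gRNA2+dox to gRNA2 for 49 members by role, and lines the exact 95% counting interval. Dotted lines mark 1.5-fold in either direction. The 6 members in red are past it with the interval above 0, and the interval of IFI44L, from 2 and 18 reads, is the widest.

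The IFIT family held the largest differences that rest on many reads. IFIT proteins bind RNA whose end marks it as foreign and hold it back from translation, and their genes form a cluster on chromosome 10, within the annotated span of LIPA. IFIT3 (GRCh38.p14, as for all positions here, chr10:89327997-89340968) had 118, 154, 191 and 479 reads, or 5.78, 6.84, 7.33 and 21.9 CPM. Its log2 ratio of gRNA2+dox to gRNA2 was 1.58 (interval 1.34 to 1.83). The gRNA2+dox value stood apart, and the other 3 libraries lay within a narrow range.

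IFIT2 (chr10:89302046-89309271) had 46, 46, 74 and 185 reads, or 2.25, 2.04, 2.84 and 8.47 CPM. Its log2 ratio to gRNA2 was 1.57 (interval 1.18 to 1.99). IFIT1 (chr10:89392623-89406487) had 37, 27, 47 and 74 reads, and its log2 ratio to gRNA2 was 0.90 (interval 0.36 to 1.47). Both were highest in gRNA2+dox and lowest in CTL+dox. IFIT5 (chr10:89414568-89420997), which lies in the same cluster, had 100, 134, 131 and 128 reads and differed from gRNA2 by 0.22 on the log2 scale (interval -0.14 to 0.58). It was thus the 1 family member whose interval included 0, and its highest level was in CTL+dox.

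**Figure D3:**
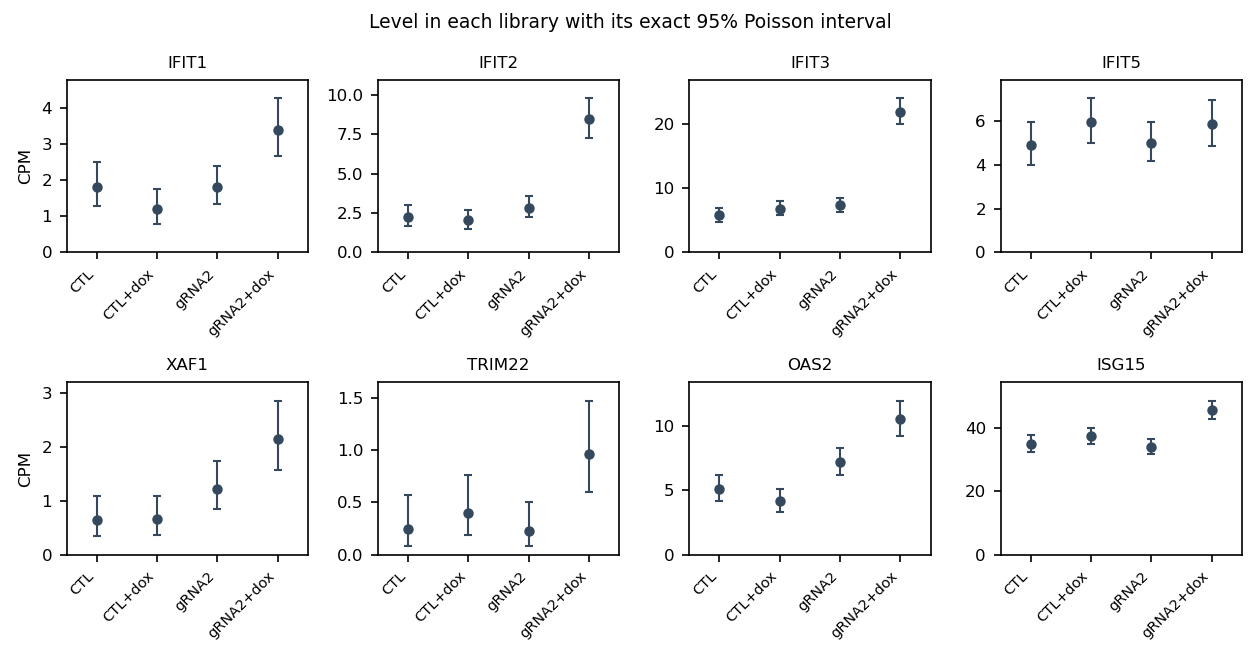
CPM of 8 members in each of the 4 libraries, each panel with its own axis from 0 and bars for the exact 95% Poisson interval of the reads. gRNA2+dox stands above the other 3 libraries for IFIT1, IFIT2 and IFIT3, while IFIT5 overlaps in all 4.

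The IFI genes differed among themselves. IFI44L (chr1:78620448-78646145), a GTPase-like protein named for its induction by interferon, had 2, 0, 2 and 18 reads. Its log2 ratio to gRNA2 was 3.10 with a wide interval of 1.36 to 6.58, and against CTL+dox the level was at least 6.19-fold higher, taking 3 reads as the floor of that library. Its paralogue IFI44 had 49, 55, 60 and 58 reads and a log2 ratio to gRNA2 of 0.20 (interval -0.34 to 0.75). IFI44L was thus close to absent outside gRNA2+dox, whereas IFI44 was even across all 4 libraries.

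IFI35, a cytoplasmic partner of NMI, had 156, 186, 234 and 271 reads and a log2 ratio to gRNA2 of 0.46 (interval 0.21 to 0.72). IFI27, a mitochondrial protein, had 46, 93, 55 and 61 reads and was highest in CTL+dox. IFI6, a membrane protein that protects against apoptosis, had 75, 90, 106 and 71 reads, and its log2 ratio to gRNA2 was -0.32 (interval -0.78 to 0.12). IFI6 had the lowest ratio of the members with at least 50 reads in every library. Of its canonical transcript, 26.6% occurs in the transcript of another gene in stretches of 50 or more identical bases, and a read placed in both is not counted.

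Among sensors of double-stranded RNA, IFIH1 (MDA5) had 644, 705, 841 and 897 reads and a log2 ratio to gRNA2 of 0.35 (interval 0.21 to 0.48). DDX58 (RIG-I, now RIGI) had 891, 962, 1135 and 1020 reads with a ratio of 0.10 (interval -0.02 to 0.22), and DDX60, a helicase linked to RIG-I signalling, 201, 256, 356 and 294 reads with a ratio of -0.02 (interval -0.25 to 0.21). None of the 3 was past 1.5-fold. For DDX58, 96.6% of the canonical transcript is shared with an overlapping transcript in the GENCODE annotation, so its count depends on which of them the annotation used by the study held.

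Enzymes that act on or are switched on by double-stranded RNA differed within their own family. OAS2 (chr12:112978519-113011723), which makes the oligoadenylates that activate RNase L, had 104, 93, 187 and 229 reads. Its log2 ratio to gRNA2 was 0.55 (interval 0.26 to 0.83), just short of the 0.58 that 1.5-fold gives. OASL, a relative without that activity that enhances RIG-I, had 72, 75, 99 and 119 reads and a ratio of 0.52 (interval 0.12 to 0.92). OAS2 was thus higher in both libraries of the gRNA2 pool than in both of the CTL pool.

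OAS3 had a log2 ratio to gRNA2 of 0.22 (interval 0.12 to 0.32) and OAS1 one of -0.06 (interval -0.20 to 0.08). EIF2AK2, the kinase PKR that halts translation, had 2140, 2203, 3003 and 2395 reads and a ratio of -0.07 (interval -0.15 to 0.01). ADAR, which edits adenosine in double-stranded RNA, had 4343, 4294, 6185 and 4851 reads and a ratio of -0.10 (interval -0.15 to -0.04). With so many reads, the interval of ADAR was narrow, and it lay below 0.

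Of the MX GTPases, which trap viral ribonucleoproteins, MX1 had 1441, 1512, 1852 and 1908 reads with a log2 ratio to gRNA2 of 0.30 (interval 0.20 to 0.39). MX2 had 8, 8, 18 and 7 reads, reached 10 in gRNA2 alone, and had a ratio of -1.06 whose interval of -2.61 to 0.22 included 0. A difference in MX2 was not detectable at this depth.

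Among membrane proteins that restrict viruses, IFITM1 had 431, 560, 699 and 870 reads, with a log2 ratio to gRNA2 of 0.57 (interval 0.42 to 0.72). BST2 (tetherin), which holds budding virions on the cell surface, had 239, 337, 349 and 432 reads and a ratio of 0.56 (interval 0.36 to 0.77). Both were just under 1.5-fold, with intervals well above 0. IFITM3 had a ratio of 0.09 (interval 0.02 to 0.16), LY6E of -0.02 (interval -0.11 to 0.08) and IFITM2, with 42, 64, 77 and 58 reads, of -0.15 (interval -0.67 to 0.36). IFITM1 and IFITM3 share 110 identical bases, 16.5% and 18.0% of their transcripts. A read that lies wholly within an identical stretch is not assigned to either, and how many reads this affected was not measured.

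The pair of RSAD2 (viperin, which makes a chain-terminating nucleotide) and its neighbour CMPK2 (a nucleotide kinase) overlap on chromosome 2. CMPK2 had 563, 579, 586 and 668 reads with a log2 ratio to gRNA2 of 0.44 (interval 0.28 to 0.61), while RSAD2 had 895, 950, 998 and 910 reads with a ratio of 0.12 (interval -0.01 to 0.25). Counting without strand leaves reads of the overlap unassigned. ISG20, an RNA exonuclease, had a ratio of 0.15 (interval 0.01 to 0.29).

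The neighbouring genes SAMD9 and SAMD9L, large proteins that block translation of poxviral RNA, had ratios of opposite sign. SAMD9L (chr7:93130056-93148385) had 148, 120, 212 and 229 reads and a log2 ratio to gRNA2 of 0.36 (interval 0.09 to 0.64). SAMD9 had 1112, 1054, 1324 and 912 reads and a ratio of -0.28 (interval -0.41 to -0.16). The intervals of the pair did not overlap.

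In the ISG15 pathway, ISG15 had 716, 844, 890 and 1000 reads and a log2 ratio to gRNA2 of 0.42 (interval 0.29 to 0.55). The conjugating enzyme UBE2L6 had 796, 1046, 1435 and 1539 reads and a ratio of 0.35 (interval 0.25 to 0.46). The activating enzyme UBA7 had 47, 79, 109 and 87 reads and a ratio of -0.07 (interval -0.49 to 0.35). The modifier and its conjugating enzyme were thus higher in gRNA2+dox by less than 1.5-fold, and the activating enzyme was not. The main human ligase of the pathway, HERC5, had 495, 556, 642 and 438 reads and a ratio of -0.30 (interval -0.48 to -0.12), its relative HERC6 a ratio of -0.11 (interval -0.28 to 0.05), and USP18, which removes ISG15 and restrains the type I receptor, a ratio of 0.08 (interval -0.08 to 0.23). The members of this pathway therefore had ratios on both sides of 0.

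Among the TRIM ubiquitin ligases, TRIM22 (chr11:5689790-5710863) had 5, 9, 6 and 21 reads, with a log2 ratio to gRNA2 of 1.96 (interval 0.70 to 3.66). TRIM25 (which ubiquitinates RIG-I), TRIM21 (a cytosolic antibody receptor), TRIM5 (which restricts retroviral capsids) and TRIM14 (a mitochondrial adaptor) had at least 270 reads in every library and ratios from -0.06 to 0.11, the lowest in TRIM14 with 318, 270, 384 and 309 reads. All 4 intervals included 0. The PARP14, PARP9, PARP12 and DTX3L genes, which form or work beside an ADP-ribosylation and ubiquitin ligase module, had ratios from 0.10 to 0.26. The interval lay above 0 for PARP14 and DTX3L and included 0 for PARP9 and PARP12. DTX3L, with the largest, had 988, 1080, 1432 and 1442 reads, and PARP14 had 2058, 2021, 2868 and 2719. PARP9 and DTX3L, whose proteins form a complex, overlap on chromosome 3.

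XAF1 (chr17:6755447-6775647), a proapoptotic partner of XIAP, had 13, 15, 32 and 47 reads, and a log2 ratio to gRNA2 of 0.80 (interval 0.13 to 1.5). Its level in gRNA2 was already above both CTL libraries. Stretches of 50 or more bases that occur in transcripts of other genes make up 74.2% of its canonical transcript, so its count is uncertain. PLSCR1, LGALS3BP and SP110 (a nuclear body protein) had ratios of 0.03, -0.04 and 0.02.

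The comparison with CTL+dox asks the same of the 2 libraries given doxycycline. Here 12 members were past 1.5-fold as higher, against 2.59% of all genes, and 0 as lower, against 4.18%. They were OAS2, OASL, IFIT1, IFIT2, IFIT3, IFI44L, IFI35, SAMD9L, UBE2L6, TRIM22, IFITM1 and XAF1. IFI44L and TRIM22 entered through gRNA2+dox alone, and 10 of the 46 members with 10 or more reads in every library were past 1.5-fold. The median was 0.25, against 0.00 for all genes, and 38 members were above 0, against 50.2%. The interval lay above 0 in 31 members, against 20.8% of all genes, and below 0 in 4 (HERC5, SAMD9, OAS1 and IFI27), against 19.4%.

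By the stricter rule 6 members (OAS2, IFIT1, IFIT2, IFIT3, IFI44L and XAF1) were higher, against 0.454% of all genes, and 0 lower, against 0.98%. Of the 46 members with 10 or more reads in every library, 5 met it as higher. IFIT2 was 4.11-fold higher with a log2 ratio of 2.04 (interval 1.58 to 2.55), and IFIT3 3.20-fold higher with 1.68 (interval 1.42 to 1.95). XAF1 had a log2 ratio of 1.66 (interval 0.83 to 2.64), IFIT1 of 1.48 (interval 0.85 to 2.19) and OAS2 of 1.34 (interval 0.99 to 1.71). These were the largest ratios among the members with 10 or more reads in every library. IFI27 was lower by 0.56 on the log2 scale and its interval of -1.05 to -0.08 did not reach 0.

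Against CTL, 13 members were past 1.5-fold as higher, against 1.92% of all genes, and 0 as lower, against 3.73%. The stricter rule was met by 5 as higher (OAS2, IFIT2, IFIT3, IFI44L and XAF1), against 0.408%, and by 0 as lower, against 0.796%. With the 46 members that had 10 or more reads in every library, 11 were past 1.5-fold and 4 past the stricter rule. The median was 0.30, with 41 members above 0, against 51.6% of all genes. BST2 and UBA7 were among the 13, with log2 ratios of 0.76 (interval 0.53 to 0.99) and 0.79 (interval 0.26 to 1.34). The 3 comparisons of gRNA2+dox share that library, so they are not independent of each other.

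Each library was also set against the other 3 in turn. gRNA2+dox was past the stricter rule against every other library in 3 members, IFIT2, IFIT3 and IFI44L, against 0.158% of all genes, and past 1.5-fold in 6, against 0.52%. IFI44L entered through gRNA2+dox alone, and 2 of the 46 members with 10 or more reads in every library were past the stricter rule, against 0.137% of genes with as many reads. No member was past the stricter rule as higher in this way in CTL, where 0.0132% of all genes were, or in CTL+dox and gRNA2, where 0.0% were. By the 1.5-fold rule the only other case was UBA7, lower in CTL than in each other library, against 0.125% of all genes.

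The comparison of gRNA2 with CTL asks how the pools differed without doxycycline. 35 members were above 0, against 55.5% of all genes, and the median log2 ratio was 0.13 against 0.03. The interval lay above 0 in 18 members, against 19.7% of all genes, and below 0 in 2 (CMPK2 and RSAD2), against 11.8%. Only UBA7 was past 1.5-fold, with a log2 ratio of 0.86 (interval 0.36 to 1.39), against 1.55% of all genes as higher, and 0 members were lower by that rule, against 2.52%. By the stricter rule 0 members were higher, against 0.112% of all genes, and 0 lower, against 0.362%.

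Among members with at least 50 reads in every library, UBE2L6 at 0.50 (interval 0.37 to 0.63), OAS2 at 0.49 (interval 0.14 to 0.86) and DDX60 at 0.47 (interval 0.22 to 0.73) had the largest log2 ratios of gRNA2 to CTL. CMPK2 at -0.29 (interval -0.46 to -0.12), RSAD2 at -0.19 (interval -0.33 to -0.06) and SAMD9 at -0.10 (interval -0.22 to 0.02) had the smallest. UBE2L6 and OAS2 thus differed between the untreated pools with intervals above 0. UBA7 was lower in CTL than in each other library. IFIT1, by contrast, had a ratio of -0.01 (interval -0.66 to 0.66) between the untreated pools.

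The comparison of CTL+dox with CTL asks how the members differed with doxycycline where no TCOF1 guide was present. The median of the members was 0.00, against 0.01 for all genes, and 25 members were above 0, against 52.3%. IFI27, with a log2 ratio of 0.87 (interval 0.35 to 1.42), and UBA7, with 0.60 (interval 0.07 to 1.16), were past 1.5-fold as higher, against 1.45% of all genes, and 0 members were lower, against 1.68%. By the stricter rule 0 members were higher, against 0.0592%, and 0 lower, against 0.112%.

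With at least 50 reads in every library, BST2 at 0.35 (interval 0.11 to 0.60), IFIT5 at 0.28 (interval -0.10 to 0.67) and UBE2L6 at 0.25 (interval 0.12 to 0.39) had the largest log2 ratios of CTL+dox to CTL. SAMD9L at -0.44 (interval -0.80 to -0.09), TRIM14 at -0.38 (interval -0.62 to -0.14) and OAS2 at -0.30 (interval -0.72 to 0.11) had the smallest. In the control pool the members thus lay on both sides of 0.

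**Figure D4:**
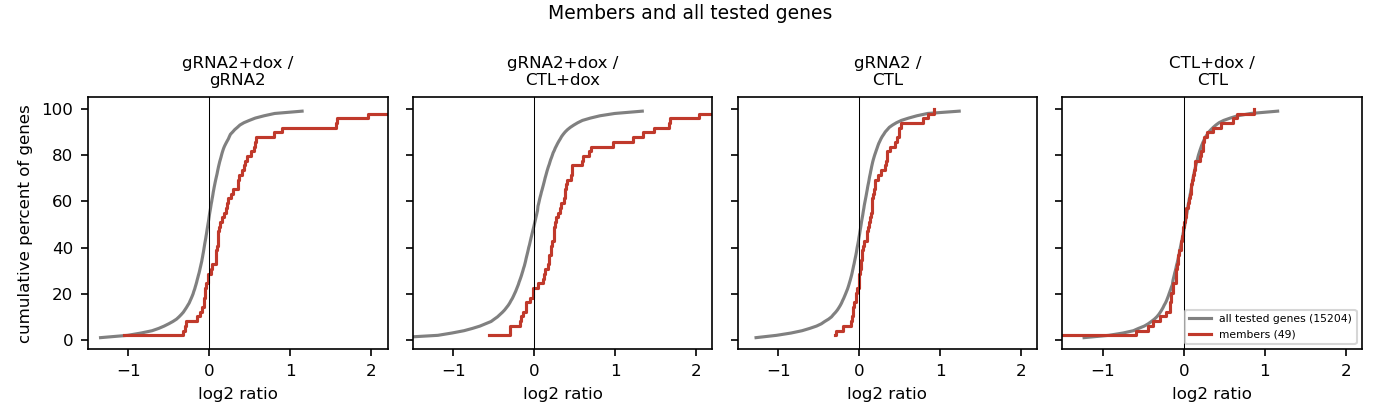
Cumulative percent of genes by log2 ratio for the 49 members (red) and all 15204 tested genes (grey) in 4 comparisons. The red curve lies to the right of the grey in both comparisons of gRNA2+dox, with medians of 0.13 and 0.25. In gRNA2 against CTL the median of the members is also 0.13, against 0.03 for all genes. In CTL+dox against CTL the red curve lies along the grey, with a median of 0.00.

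The design crosses the guide with doxycycline, so the log2 ratio of gRNA2+dox to gRNA2 can be set against that of CTL+dox to CTL, which share no library. The difference of both ratios had a median of 0.18 over the members and -0.02 over all genes, and was above 0 in 33 members, against 45.9% of all genes. It was past 1.5-fold with its interval above 0 in 6 members, against 2.45%, and below 0 in 1, UBA7, against 3.22%. IFIT2 had a difference of 1.71 (interval 1.01 to 2.42), IFIT1 of 1.49 (interval 0.62 to 2.39) and IFIT3 of 1.34 (interval 0.92 to 1.76).

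OAS2 had a difference of 0.85 (interval 0.36 to 1.34) and SAMD9L of 0.81 (interval 0.37 to 1.25). Both had a ratio below 0 in CTL cells, with an interval that included 0 for OAS2, and a ratio above 0 in gRNA2 cells. IFI44L was the sixth by this rule, with 0 reads in CTL+dox, so its size depends on the prior count and is not given. Over the 46 members with 10 or more reads in every library, the ratios of both pools had a Pearson r of -0.06 and a Spearman rho of -0.03 across genes, which are not independent replicates. The ratio with doxycycline was above 0 in gRNA2 and below 0 in CTL cells for 17 of the 46, against 18.4% of genes with as many reads. It was above 0 in both for 16, against 27.7%, below 0 in both for 5, against 29.1%, and below 0 in gRNA2 and above 0 in CTL cells for 8, against 24.9%. Opposite signs with a difference past 1.5-fold and its interval short of 0 were found in 5 of the 46 (IFIT1, IFIT2, OAS2, SAMD9L and UBA7), against 4.29% of genes with as many reads.

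The other genes of the interferon pathway were read from lists of ligands, receptors, relay proteins, sensing adaptors, feedback inhibitors and interferon-gamma targets. Of 21 interferon ligands, 1 had 10 or more reads in any library: IFNL1, a type III interferon, with 7, 5, 15 and 8 reads. Summed, the ligands had between 0.666 and 1.01 CPM, and 7 of them had 0 reads in all libraries. IFNB1 had 2, 2, 3 and 1 reads and IFNG 0, 1, 0 and 1. Ligand RNA was thus at or near 0 in all 4 conditions, and at this depth no difference in it was detectable. All 6 receptor chains were detected, and 0 of them were past 1.5-fold between gRNA2+dox and gRNA2, with log2 ratios from -0.13 to 0.22.

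IRF1, a transcription factor that interferon-gamma induces, belongs to the JAK, STAT and IRF relay. It was past 1.5-fold as higher in gRNA2+dox against gRNA2, beside 1.7% of all genes. IRF1 had 1026, 1030, 1597 and 2059 reads and a log2 ratio of 0.62 (interval 0.53 to 0.72). STAT2 and IRF9, which take part in the complex that binds the response element, had ratios of 0.35 (interval 0.19 to 0.50) and 0.29 (interval 0.12 to 0.46). Both were higher in gRNA2+dox by less than 1.5-fold, with intervals above 0.

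Of the 6 feedback inhibitors, SOCS1 and SOCS3, which block JAK kinases, were past 1.5-fold in gRNA2+dox against gRNA2, beside 1.7% of all genes as higher. Against CTL+dox and against CTL, SOCS3 was past it and SOCS1 was not. SOCS1 had 631, 822, 616 and 912 reads and a log2 ratio of gRNA2+dox to gRNA2 of 0.82 (interval 0.67 to 0.97), and SOCS3 had 1488, 1871, 2425 and 3179 reads and a ratio of 0.64 (interval 0.57 to 0.72). SOCS1 was lower in gRNA2 than in CTL, with a log2 ratio of -0.39. Among 9 tested adaptors and kinases of nucleic acid sensing, 1 was past 1.5-fold: ZBP1, a sensor of left-handed nucleic acid, with 11, 15, 8 and 23 reads and a ratio of 1.71 (interval 0.57 to 3.15). Against CTL+dox and against CTL, 0 of the 9 were past it as higher. The DNA sensor cGAS, listed as MB21D1, had a ratio of -0.42 (interval -0.80 to -0.05).

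Genes raised mainly by interferon-gamma were set beside the antiviral members. Of 20, all tested, 10 were past 1.5-fold as higher in gRNA2+dox against gRNA2, against 1.7% of all genes, and 0 as lower, against 2.39%, with a median log2 ratio of 0.59 beside the 0.13 of the antiviral members and the -0.02 of all genes. They were the guanylate-binding proteins GBP1, GBP2, GBP4 and GBP5, the chemokines CXCL9, CXCL10 and CXCL11, the tryptophan-degrading enzyme IDO1, the class II transactivator CIITA and HLA-DRA. GBP1 had 184, 210, 356 and 961 reads, and a log2 ratio of 1.69 (interval 1.51 to 1.87). CXCL10, a chemokine that draws T cells, had 24, 45, 27 and 206 reads and a ratio of 3.16 (interval 2.60 to 3.82). IDO1 had 893, 1127, 1533 and 3548 reads and a ratio of 1.46 (interval 1.38 to 1.55). In gRNA2 against CTL the list had a median of 0.38, and 4 of its genes (GBP1, GBP5, HLA-DPA1 and CD74) were past 1.5-fold as higher, against 1.55% of all genes, so its levels also differed between the untreated pools. In CTL+dox against CTL the median of the list was 0.05. There CXCL10 and HLA-DRB1 were past 1.5-fold as higher, against 1.45% of all genes, and CXCL9 as lower, against 1.68%. The difference between the interferon-gamma list and the antiviral members was not tested, because each library stands alone and genes of a list are not replicates. Like the members, the list was chosen with earlier results of these data known, so its shares and medians are descriptions.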

How the data were processed

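The authors trimmed adaptors with fastp, aligned the reads with STAR and deposited its unnormalised counts of reads per gene. Per the labels the build is hg38; the versions of STAR and of the annotation are not given in the sources used here. A read enters these counts when it has a single alignment that overlaps a single gene. The unstranded counts were used, because the first strand held 49.0% to 49.1% of stranded counts. Reads on genes were 79.7% to 81.0% of those recorded, multimapping reads 3.39% to 4.85% and reads on no gene 10.6% to 12.5%. These lines of the tables stayed out of library sizes.

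Library sizes were scaled with edgeR 4.0.16 (TMM over all genes) in R 4.3.3. The comparisons took the 15204 genes, of 26475, that reached 10 counts in any library. A prior count of 0.5, adjusted for library size, entered the log2 ratios. Intervals are exact (Clopper-Pearson, 95%) for a pair of libraries, made in Python 3.11.15 (scipy 1.17.1, numpy 2.4.6). Those of a difference of ratios use a normal approximation with the counting variance of every library. The stricter cutoffs are those the study gave with GFOLD for lowered genes, used here in both directions. GFOLD was not run: a posterior bound at the 1% or 99% quantile under Poisson error took its place. It was tried on simulated Poisson counts only, which hold no variation between cultures, so its behaviour under such variation is not known. Reads from PCR are not independent molecules, so intervals cover counting error only. No p-value is given.

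Groups follow the labels, 1 library each. Members and lists were chosen with earlier results of these data known. Values in every library were given for members past 1.5-fold in gRNA2+dox against gRNA2, the 5 highest per transcript length, the 3 largest and 3 smallest ratios of gRNA2 and of CTL+dox to CTL with 50 or more reads in every library, and at least 1 member of each role; genes of the pathway lists were named where past 1.5-fold. STAT2, IRF9, MB21D1, IFNB1, IFNG, CD68, CSF1R, CD14 and PTPRC were named after their values were seen. Positions and promoters are from RefSeq on GRCh38.p14, and transcript lengths and shared sequence from GENCODE 44. DESeq2 1.42.0 size factors, total counts, other filters, thinning, a prior count of 5 and other bounds were alternatives. Results that need certain genes are not reported here.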

Additional observations from a re-analysis of the deposited data

Results flagged for a closer look

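For 5 members with 10 or more reads in every library, the log2 ratios with doxycycline had opposite signs in the gRNA2 and CTL pools. The difference of the ratios was past 1.5-fold, and its interval did not include 0. The same held for 4.29% of the 13856 genes with as many reads, against 5 of 46 members. The difference was 1.71 for IFIT2, 1.49 for IFIT1, 0.85 for OAS2 and 0.81 for SAMD9L, with ratios above 0 in gRNA2 cells and below 0 in CTL cells. It was -0.67 for UBA7, with a ratio of -0.07 in gRNA2 cells and 0.60 in CTL cells. The interval of the ratio included 0 in CTL cells for IFIT2, IFIT1 and OAS2 and in gRNA2 cells for UBA7, so the sign in that pool is not settled for them. With 1 library per condition, these differences were not tested across cultures. TCOF1 was lower with doxycycline in both pools, with log2 ratios of -1.34 in gRNA2 and -0.58 in CTL cells, and its part in these values was not tested.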

How the results depend on the processing

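No paired analysis was possible because no group had more than 1 library, which also left no library to leave out. Of 322 values recomputed under alternatives, 311 stayed within a set tolerance, which was 1.5 times for a count. For a gene it came from its counting interval, and for a median from that of the gene nearest to it. That is not the counting error of a median. Many of the counts were 0 and stayed 0, so the 311 do not measure stability. Over all alternatives the median of the members ranged from 0.12 to 0.16 for gRNA2+dox against gRNA2, from 0.23 to 0.29 against CTL+dox, from 0.25 to 0.32 against CTL, from 0.08 to 0.13 for gRNA2 against CTL, and from -0.03 to 0.01 for CTL+dox against CTL, where its sign was not fixed. Against gRNA2, a filter of 50 or more reads in at least 1 library left 2 members past the stricter cutoffs and 3 past 1.5-fold (IFIT1, IFIT2 and IFIT3), in place of 4 and 6, because fewer genes were compared. Members with 10 or more reads in every library, gave 2 past the cutoffs; this alternative and TMM over the filtered genes were chosen after seeing the data. Against CTL, the same filter of 50 or an added coefficient of variation of 0.1 gave 3 past the cutoffs in place of 5. With total counts only, 1 member (IFI27) was lower by 1.5-fold against CTL+dox in place of 0. For CTL+dox against CTL, total counts only and a prior count of 5 each left 1 member (IFI27) higher by 1.5-fold in place of 2. The log2 ratio alone called 1 member (MX2) lower against gRNA2 and 1 (IFI44L) lower in CTL+dox against CTL, in place of 0 each. Pooling the 3 other libraries as reference called 6 members in place of 3. The cause of these moves was not tested where none is named. The 6 members past 1.5-fold against gRNA2 kept a log2 ratio above 0 under every alternative that retained them, and IFI44L, on 18 reads, had the widest range, from 1.81 to 3.48.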
